A study of Mus musculus with 24 samples.

Results

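Fibroblast markers and genes of PDGF signaling were followed in the RNA-seq libraries of D2.1 and D2A1 mammary tumor cells and of the tumors they formed. The 10 genes were taken by symbol from the read count and FPKM tables, in which they are 10 of 55288 genes listed in all, and each was present in both the cell and the tumor table. They comprise the PDGF ligands Pdgfa, Pdgfb and Pdgfc, the receptors Pdgfra and Pdgfrb, the surface proteins Fap and Thy1, the contractile actin Acta2 and the matrix proteoglycans Dcn and Lum.

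D2.1 and D2A1 are BALB/c-derived mouse mammary tumor lines, of which D2.1 remains dormant for long periods and D2A1 proliferates rapidly. Each was sequenced from culture, with 3 replicates per line. Mammary fat pad tumors of female mice were also sequenced, from 4 BALB/c and 5 SCID-beige mice per line. Mice of 8 to 12 weeks were used, and their age at tumor collection is not given in the sources used here. Tumors were collected by size, not at a set time, and D2.1 remains dormant for long periods. Time in the mouse and age at collection may therefore differ between lines. Their part in the line differences was not tested. BALB/c mice (BALB/cAnNTac) are immunocompetent, whereas SCID-beige mice carry the Prkdc scid and Lyst bg alleles, which leave them without T and B cells and with defective NK cells. The labels name no drug treatment or transgene for any group. Each tumor library came from 1 snap-frozen tumor collected near 500 mm3 and mixes tumor cells with host cells, so fewer cells of a type and less RNA per cell cannot be told apart. The mice kept their own fibroblasts, vessels and myeloid cells in both strains. The study's methods describe the points of its in vitro experiments as technical replicates and name no separate cultures for these libraries, so p-values from culture measure only the spread between these samples.

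PDGF ligands are secreted dimers that bind a pair of receptor tyrosine kinases on mesenchymal cells. PDGF-A and PDGF-C act mainly through PDGFRα, which marks fibroblasts, while PDGF-B acts through both receptors and recruits PDGFRβ-positive pericytes to vessels. In mammary tumors, carcinoma-associated fibroblasts are commonly recognized by FAP, a serine protease of the cell surface, by PDGF receptors and by α-smooth muscle actin, the product of Acta2. Decorin and lumican are small leucine-rich proteoglycans that bind collagen fibrils. Thy1 (CD90) is a surface glycoprotein of fibroblasts and, in mice, of T cells.

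On GRCm38, Pdgfra (chr5:75152292-75198215) and Pdgfa (chr5:138976014-138997370) share chromosome 5, and Dcn (chr10:97479609-97518143) and Lum (chr10:97565128-97572703) are neighbors on chromosome 10, with 46985 bases between them. Coordinates of the others printed here are those of Fap (chr2:62500943-62574075), Pdgfb (chr15:79995874-80014977), Pdgfc (chr3:81036416-81214040), Acta2 (chr19:34241090-34255590) and Thy1 (chr9:44043384-44048579). Exons of Pdgfa overlap an antisense gene, 6330403L08Rik, which had 55 to 195 counts in cell libraries and 123 to 521 in tumors. Whether counting used the strand is not given in the sources used here, so reads of this pair cannot be told apart if it did not.

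Promoters were taken from RefSeq on GRCm38.p6, from 250 bases before to 50 bases after a start site, and the table held them for 4 of the 10 genes. The 3 below belong to members that were higher in D2.1 cells in culture, where no host cells were present. Capitals mark CArG boxes, the element bound by serum response factor, allowing 1 other inner base. The sequences are those of Acta2 (chr19:34255324-34255623, minus strand), Pdgfc (chr3:81036166-81036465, plus strand) and Pdgfra (chr5:75152001-75152300, plus strand).
Acta2: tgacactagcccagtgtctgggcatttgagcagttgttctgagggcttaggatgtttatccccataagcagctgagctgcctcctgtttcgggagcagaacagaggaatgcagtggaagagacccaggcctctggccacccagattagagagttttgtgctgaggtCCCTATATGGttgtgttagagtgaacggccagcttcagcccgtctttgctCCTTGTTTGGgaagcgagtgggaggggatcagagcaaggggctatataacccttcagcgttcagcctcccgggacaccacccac
Pdgfc: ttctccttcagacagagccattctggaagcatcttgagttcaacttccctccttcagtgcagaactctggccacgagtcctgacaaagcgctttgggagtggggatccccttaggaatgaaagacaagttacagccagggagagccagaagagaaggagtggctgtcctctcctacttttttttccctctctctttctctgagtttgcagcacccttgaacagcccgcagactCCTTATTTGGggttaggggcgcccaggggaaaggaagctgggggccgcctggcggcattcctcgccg
Pdgfra: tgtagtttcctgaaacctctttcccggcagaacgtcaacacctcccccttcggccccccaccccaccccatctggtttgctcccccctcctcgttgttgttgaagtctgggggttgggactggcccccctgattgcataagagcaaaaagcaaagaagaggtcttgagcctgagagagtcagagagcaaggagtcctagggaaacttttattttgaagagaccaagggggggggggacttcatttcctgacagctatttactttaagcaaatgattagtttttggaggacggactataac
The Acta2 promoter held a pair of CArG boxes, at -84 to -75 and -34 to -25 from the start site, and the Pdgfc promoter held 1 at -17 to -8. On either strand, 9.98% of the 32851 promoters in the table held such a match. GGAATG was found in the Acta2 and Pdgfc promoters (14.7% of all promoters), and TATAAA (13.6%) and TGANTCA (7.81%) in none of the members' promoters. GGGCGG was present in both Pdgfa promoters (35.7% of all). These matches describe letters in the windows only.

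Between 16837260 and 24818234 reads were counted on genes per cell library and 13566949 to 18355153 per tumor library. Levels are given as CPM, the count of a gene per 1000000 counted reads of its library, and a floor of 3 counts was 0.121 to 0.178 CPM in cells and 0.163 to 0.221 CPM in tumors, which covers counting error only. Among the D2.1 tumors from BALB/c mice, replicate 1 held 509 CPM of 7 milk protein genes in sum and replicate 4 held 57.6 CPM of them and 128 CPM of 8 skin keratinocyte genes, so results that rest on them are also given without both. Changed genes were called by edgeR's quasi-likelihood test across all genes with Benjamini-Hochberg adjustment and an adjusted p under 0.05. Cell and tumor libraries were counted with different gene lists and were not tested against each other.

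In culture, D2.1 cells had higher transcript levels of Fap, Pdgfra, Pdgfrb, Pdgfc and Acta2 than D2A1 cells, while Pdgfa and Pdgfb did not pass the test and Thy1, Dcn and Lum were near 0 in both lines. Of the 7 members tested, 5 were called and all 5 were higher in D2.1 cells, where 44.9% of the 12489 genes tested were called and 24.2% were higher in D2.1 cells. The 5 genes were also those whose libraries did not overlap between lines, as held for 56.7% of all genes tested. Acta2 was at 214.1, 230 and 149 CPM in the 3 D2.1 replicates and at 15.4, 16.1 and 14.8 CPM in the D2A1 replicates. The lines were far apart in all replicates, and the log2 fold change was 3.82 (SE 0.22, adjusted p = 3.6e-06, edgeR). Exact permutation tests of 3 replicates against 3 cannot give a two-sided p below 0.10, which was reached by Acta2, Pdgfra, Pdgfrb, Pdgfc and Fap.

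The receptors were both transcribed by the tumor cells. Pdgfra stood at 53.1, 57.5 and 77.4 CPM in D2.1 cells and at 4.87, 5.73 and 11.7 CPM in D2A1 cells. The lines were well separated, with a log2 fold change of 3.20 (SE 0.30, adjusted p = 5.5e-05, edgeR). Pdgfrb was at 69.5, 71.8 and 108 CPM in D2.1 cells and at 35.4, 37.5 and 65.3 CPM in D2A1 cells. The highest D2A1 replicate lay just under the lowest D2.1 replicate, and the log2 fold change was 0.98 (SE 0.24, adjusted p = 0.0094, edgeR).

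Of the ligands, only Pdgfc was called between the cultured lines, and no test compared its difference with those of the other ligands. Its levels were 47.1, 47.0 and 53.6 CPM in D2.1 cells and 10.2, 11.2 and 13.7 CPM in D2A1 cells (log2 fold change 2.20, SE 0.14, adjusted p = 5.7e-06, edgeR). Pdgfa ranged from 25.2 to 36.1 CPM in D2.1 cells and from 23.8 to 27.8 CPM in D2A1 cells, with overlap (log2 fold change 0.37, SE 0.19, adjusted p = 0.14, edgeR). With the replicate number as a block, Pdgfa passed the test (log2 fold change 0.35, adjusted p = 0.025, edgeR), as it did without D2.1 replicate 3 (0.53, adjusted p = 0.028). Pdgfb spanned 23.5 to 44.4 CPM in D2.1 cells and 23.4 to 44.5 CPM in D2A1 cells (log2 fold change -0.13, SE 0.30, adjusted p = 0.74, edgeR).

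Fap had 42, 49 and 28 counts in the D2.1 replicates and 1, 2 and 0 in the D2A1 replicates, which makes the D2.1 level at least 10.8-fold that of D2A1 (adjusted p = 2.5e-04, edgeR). Its level in D2.1 cells was nevertheless low, at 1.88 ± 0.317 CPM (SD, n = 3). Thy1 had 1, 0 and 1 counts in D2.1 cells, Dcn 1, 2 and 0, and Lum 0, 1 and 0, and each had 0 counts in all 3 D2A1 libraries. These 3 genes did not pass the expression filter, and at this depth neither line showed them above the floor.

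**Figure D1:**
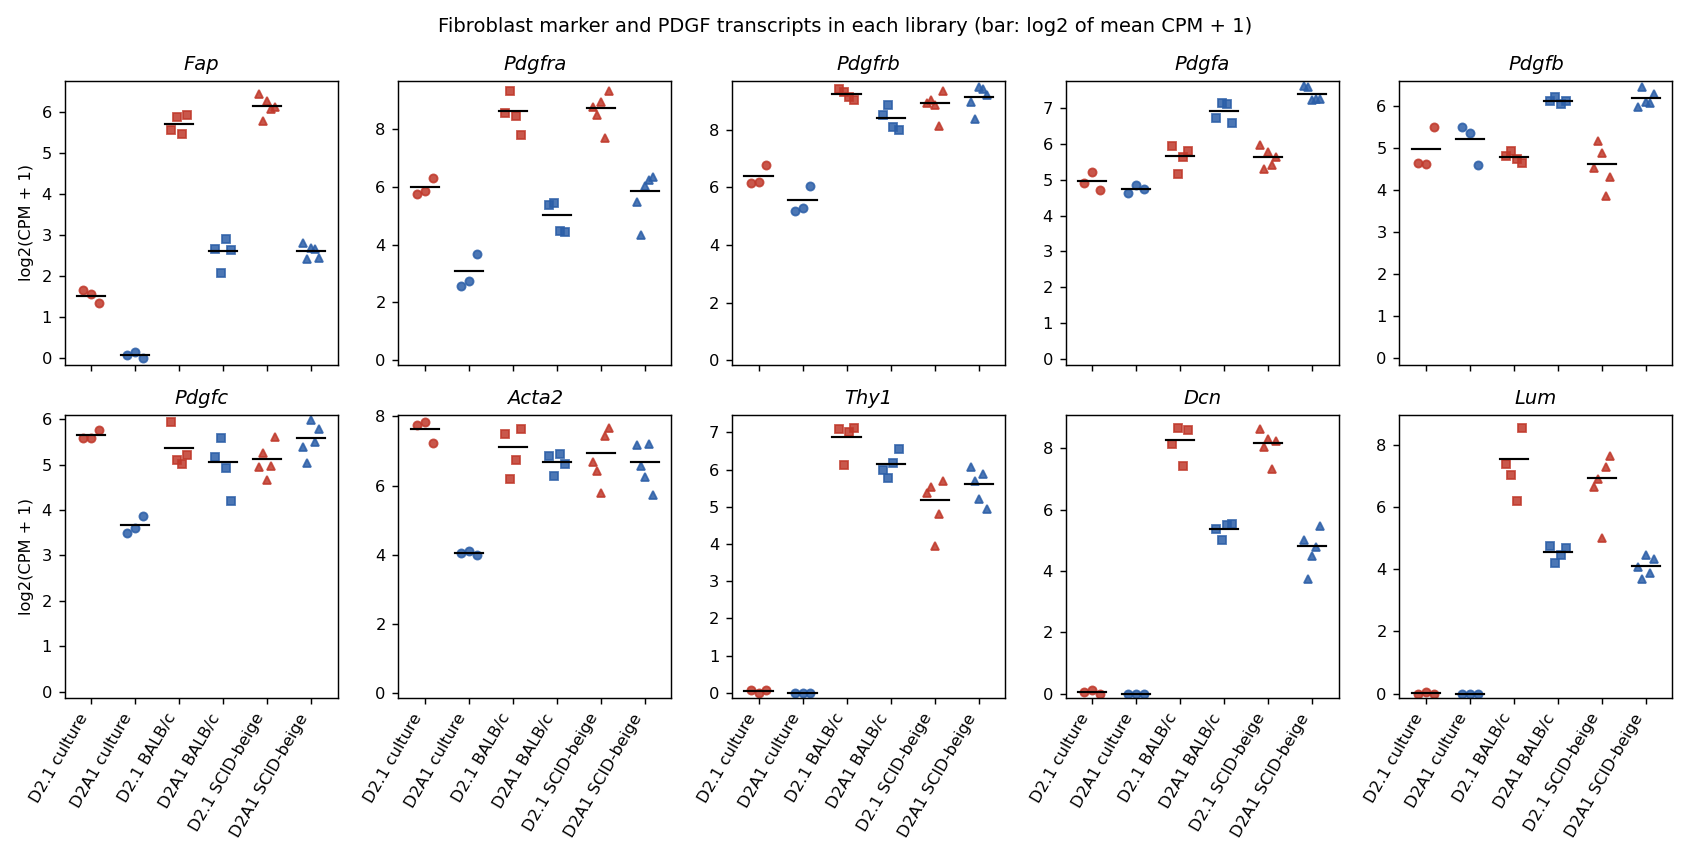
Each panel plots log2(CPM + 1) of 1 gene, with 1 point per library (red D2.1, blue D2A1; circles culture, squares BALB/c tumors, triangles SCID-beige tumors) and a bar at the log2 of the group's mean CPM plus 1. Thy1, Dcn and Lum sit at or next to 0 in all 6 cultures and between 12 and 405 CPM in all 18 tumors.

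Scaled to gene length by the deposited FPKM values, the order of the members within a culture could be compared. In D2.1 cells, Acta2 led at 111 ± 24 FPKM (SD, n = 3), above all others in every replicate, and Pdgfrb (15.3), Pdgfa (14.6), Pdgfc (14), Pdgfb (10.5) and Pdgfra (9.54) followed with overlapping neighbors. In D2A1 cells, Pdgfa (12.5 FPKM), Pdgfb (12.4), Acta2 (8.67) and Pdgfrb (8.49) overlapped with their neighbors and lay above Pdgfc (3.32) and Pdgfra (1.13).

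To set tumor cell against host origin, CPM in tumors was then compared with CPM in culture of the same line, as a description without a test. A higher level in tumors can come from host cells or from a rise in the tumor cells, and the ratio cannot tell these apart. Thy1, Dcn and Lum were well above the culture floor in every tumor. In BALB/c mice, Dcn exceeded the level of culture at least 2130-fold in D2.1 tumors and at least 231-fold in D2A1 tumors. The corresponding bounds were 1267-fold and 127-fold for Lum and 804-fold and 400-fold for Thy1. In SCID-beige mice the bounds for D2.1 and D2A1 tumors were 1965-fold and 154-fold for Dcn, 826-fold and 93.2-fold for Lum and 244-fold and 275-fold for Thy1.

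Fap, Pdgfra and Pdgfrb were present in D2.1 cultures and were higher in every tumor of that line. Fap was 27.3-fold higher in BALB/c tumors and 37.2-fold higher in SCID-beige tumors than in D2.1 culture, and at least 29.0-fold and 29.2-fold higher in the D2A1 tumors than in D2A1 culture. For Pdgfra the ratios were 6.33 and 6.76 in D2.1 tumors and 4.19 and 7.58 in D2A1 tumors, for BALB/c and SCID-beige mice in turn. Pdgfrb had ratios of 7.16 and 5.77 in D2.1 tumors and of 7.27 and 12 in D2A1 tumors.

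Acta2, Pdgfc and Pdgfb behaved differently between the lines in this respect. D2.1 tumors overlapped with D2.1 culture for all 3 genes, with ratios of 0.70 and 0.62 for Acta2, 0.82 and 0.69 for Pdgfc and 0.86 and 0.77 for Pdgfb. The direction for Pdgfb was not firm, since the median gave a log2 ratio of 0.13 in BALB/c mice in place of -0.21 for the mean. D2A1 tumors lay above D2A1 culture in every library, with ratios of 6.62 and 6.63 for Acta2, 2.76 and 4.0 for Pdgfc and 1.92 and 2.0 for Pdgfb. Pdgfa was 4.62-fold and 6.47-fold higher in D2A1 tumors than in culture and 1.64-fold and 1.62-fold higher in D2.1 tumors, where the BALB/c group overlapped with culture. Part of these ratios can be set by the gene lists, since the deposited FPKM values imply different gene lengths in both tables (Pdgfra 6570 and 2745 bases, Thy1 1735 and 827 bases, Acta2 1781 bases in each).

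In BALB/c mice, D2.1 tumors had higher levels of the fibroblast markers Fap, Pdgfra, Dcn and Lum, by 8.10-fold to 13.4-fold, with smaller differences in Pdgfrb and Thy1, and lower levels of the ligands Pdgfa and Pdgfb. No difference passed the test in Pdgfc and Acta2, both of which were called in culture. All 10 members were tested and 8 were called, 6 higher and 2 lower in D2.1 tumors, where 32.6% of 14953 genes were called, 16.8% higher and 15.8% lower. In 7 members the libraries did not overlap, against 34.9% of all genes tested.

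Fap was at 45.8, 58.0, 42.8 and 59.3 CPM in D2.1 tumors and at 5.32, 3.22, 6.56 and 5.21 CPM in D2A1 tumors from BALB/c mice. All 4 D2.1 tumors lay above all 4 D2A1 tumors (log2 fold change 3.41, SE 0.26, adjusted p = 7.7e-06, edgeR). Pdgfra was at 377, 639, 348 and 222 CPM in D2.1 tumors and at 40.6, 42.4, 21.2 and 20.7 CPM in D2A1 tumors, again without overlap (log2 fold change 3.74, SE 0.37, adjusted p = 4.2e-05, edgeR). For Pdgfrb, the levels were 682, 623, 557 and 515 CPM in D2.1 tumors and 359, 456, 270 and 255 CPM in D2A1 tumors. The log2 fold change was 0.90 (SE 0.20, adjusted p = 0.0056, edgeR), so the β receptor differed less than the α receptor in fitted size.

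Dcn stood at 284, 405, 172 and 385 CPM in D2.1 tumors and at 40.7, 31.2, 44.8 and 45.4 CPM in D2A1 tumors (log2 fold change 3.02, SE 0.28, adjusted p = 2.9e-05, edgeR). Lum was at 167, 130, 72.9 and 371 CPM in D2.1 tumors and at 25.9, 17.3, 21.2 and 24.6 CPM in D2A1 tumors (log2 fold change 3.15, SE 0.45, adjusted p = 4.6e-04, edgeR). Both proteoglycans separated the lines in every library, and Lum varied most among D2.1 tumors, with replicate 4 highest. Without that replicate its log2 fold change was 2.55, and without both libraries with milk or skin transcripts it was 2.26, still called. By exact permutation tests, Fap, Pdgfra, Pdgfrb, Dcn, Lum, Pdgfa and Pdgfb reached a two-sided p of 0.029, the smallest that 4 tumors against 4 allow.

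The ligands went the other way. Pdgfa was at 59.8, 34.7, 48.9 and 54.2 CPM in D2.1 tumors and at 103, 139, 138 and 94.1 CPM in D2A1 tumors, and its log2 fold change was -1.20 (SE 0.22, adjusted p = 0.0019, edgeR). Pdgfb was at 27.0, 29.4, 25.6 and 24 CPM in D2.1 tumors and at 68.4, 73.6, 65.3 and 69.2 CPM in D2A1 tumors (log2 fold change -1.31, SE 0.14, adjusted p = 7.8e-05, edgeR). Both groups were tight for Pdgfb and far apart. Endothelial cells are a known source of PDGF-B, and the summed level of 12 endothelial markers was 201 to 305 CPM in D2.1 tumors and 422 to 480 CPM in D2A1 tumors, with 8 markers lower and 1 higher in D2.1 tumors. In culture the sum was mostly 1 gene, Flt1, whose mean was 141 CPM for the D2.1 line against 27.1 CPM for D2A1, and 2 of the 12 markers were tested there. Their part in the result was not tested.

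Pdgfc ranged from 31.2 to 60.6 CPM in D2.1 tumors and from 17.5 to 47.2 CPM in D2A1 tumors (log2 fold change 0.39, SE 0.31, adjusted p = 0.37, edgeR). Acta2 ranged from 72.7 to 196 CPM and from 76.5 to 120 CPM, with overlap (log2 fold change 0.51, SE 0.30, adjusted p = 0.22, edgeR). It passed the test without D2.1 replicate 2 (0.72, adjusted p = 0.041), and without the libraries with milk or skin transcripts its log2 fold change was -0.15. The other members kept their direction without those libraries.

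Thy1 was at 136, 68.6, 127 and 138 CPM in D2.1 tumors and at 62.5, 53.4, 71.9 and 92.2 CPM in D2A1 tumors of BALB/c mice, so that D2.1 replicate 2 overlapped with the other line. Its log2 fold change was 0.82 (SE 0.25, adjusted p = 0.028, edgeR) and ranged from 0.70 to 1.0 when single libraries were left out. The adjusted p crossed the threshold, at 0.053 to 0.078, without D2.1 replicate 1, 3 or 4 or D2A1 replicate 1, 2 or 3, and the log2 fold change was 0.53 with an adjusted p of 0.26 without the libraries with milk or skin transcripts. The exact permutation test gave p = 0.086. T cells, which also carry Thy1 in mice, differed in the same direction. The summed level of 14 T cell markers was 136 to 361 CPM in D2.1 tumors and 17.1 to 51.0 CPM in D2A1 tumors, none of them at 0 in any BALB/c tumor and all 14 called higher in D2.1 tumors. Their part in the result was not tested.

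In SCID-beige mice, Fap, Pdgfra, Dcn and Lum were again higher and Pdgfa and Pdgfb lower in D2.1 tumors, and the 4 other members did not pass the test. The 6 called were 6 of 10 tested, where 32.1% of 14355 genes were called, 17.2% higher and 14.8% lower, and the same 6 were those without overlap (23.9% of all genes tested). Fap was at 85.2, 53.7, 76.1, 66.6 and 68.7 CPM in D2.1 tumors and at 5.96, 4.37, 5.45, 5.35 and 4.47 CPM in D2A1 tumors (log2 fold change 3.82, SE 0.19, adjusted p = 1.7e-08, edgeR). The spread within each line was small beside this distance. Pdgfra was at 434, 361, 485, 207 and 630 CPM in D2.1 tumors and at 43.9, 19.2, 65.0, 75 and 79.1 CPM in D2A1 tumors (log2 fold change 2.98, SE 0.35, adjusted p = 2.8e-05, edgeR).

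Dcn was at 396, 262, 313, 161 and 304 CPM in D2.1 tumors of SCID-beige mice and at 31.3, 12.3, 21.5, 26.5 and 43.0 CPM in D2A1 tumors. The lowest D2.1 tumor was well above the highest D2A1 tumor (log2 fold change 3.47, SE 0.31, adjusted p = 2.5e-06, edgeR). Lum was at 99.5, 118, 31.4, 155 and 200 CPM in D2.1 tumors and at 15.8, 12, 21.1, 13.8 and 19.0 CPM in D2A1 tumors, with D2.1 replicate 3 closest to the other line (log2 fold change 2.95, SE 0.38, adjusted p = 5.9e-05, edgeR).

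Pdgfa was at 62.0, 38.2, 54.0, 41.5 and 48.5 CPM in D2.1 tumors and at 193, 189, 149, 151 and 150 CPM in D2A1 tumors of SCID-beige mice (log2 fold change -1.72, SE 0.18, adjusted p = 8.8e-06, edgeR). Pdgfb was at 22.2, 34.8, 28.4, 13.5 and 19.0 CPM in D2.1 tumors and at 62.6, 87.6, 67.1, 66.1 and 77.6 CPM in D2A1 tumors (log2 fold change -1.57, SE 0.23, adjusted p = 1.7e-04, edgeR). Neither ligand overlapped between lines. Endothelial markers summed to 170 to 215.2 CPM in D2.1 tumors and 410 to 518 CPM in D2A1 tumors, with 9 of 12 lower and 1 higher. Exact permutation tests gave a two-sided p of 0.0079 for all 6 called members, the smallest that 5 against 5 allow.

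Pdgfrb overlapped in SCID-beige mice, at 279 to 652 CPM in D2.1 tumors (median 484) and 328 to 707 CPM in D2A1 tumors (median 579.4), with a log2 fold change of -0.15 (SE 0.22, adjusted p = 0.66, edgeR). Pdgfc had a log2 fold change of -0.40 (SE 0.21, adjusted p = 0.17, edgeR), Acta2 of 0.31 (SE 0.36, adjusted p = 0.56) and Thy1 of -0.39 (SE 0.32, adjusted p = 0.39). Acta2 thus stood at 198 CPM in D2.1 culture and 15.4 CPM in D2A1 culture, but at 122 and 102 CPM in the tumors of SCID-beige mice.

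**Figure D2:**
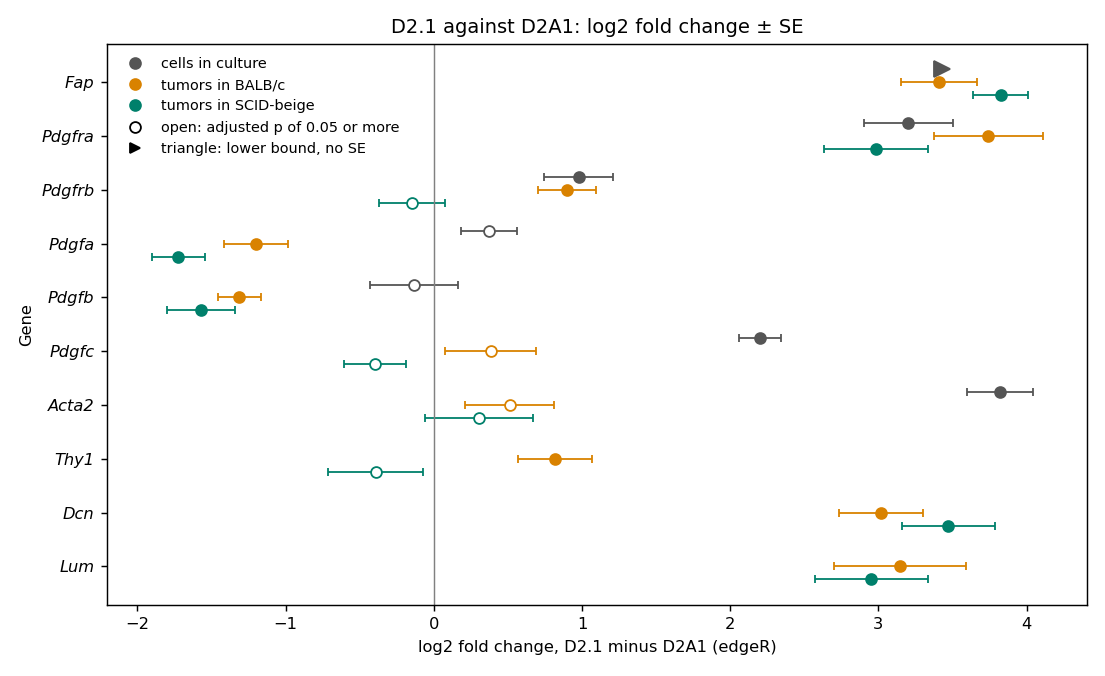
Points give the edgeR log2 fold change of D2.1 minus D2A1 with its SE for each gene in culture, BALB/c tumors and SCID-beige tumors; filled points have an adjusted p under 0.05 and the triangle is the lower bound for Fap in culture. Acta2 and Pdgfc lie at 3.82 and 2.20 in culture and between -0.40 and 0.51 in tumors. Pdgfa and Pdgfb lie at 0.37 and -0.13 in culture, both open points, and between -1.72 and -1.20 in tumors.

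The host comparison set immunocompetent mice against mice without T and B cells and with defective NK cells, whose parts cannot be told apart. In D2.1 tumors, Thy1 was the one member called between hosts, 1 of 10 where 0.891% of 14929 genes were called, 0.871% higher and 0.0201% lower in BALB/c mice. Thy1 was at 136, 68.6, 127 and 138 CPM in BALB/c mice and at 40.7, 45.4, 14.6, 26.8 and 50.5 CPM in SCID-beige mice. All 4 BALB/c tumors lay above all 5 SCID-beige tumors (4.52% of all genes did not overlap), with a log2 fold change of 1.73 (SE 0.33, adjusted p = 0.036, edgeR) and an exact permutation p of 0.016, the smallest possible here. The adjusted p rose to 0.052 to 0.13 without any 1 of BALB/c replicates 1, 3 and 4 or SCID-beige replicates 1, 4 and 5, and to 0.57 without the libraries with milk or skin transcripts. Nor was Thy1 called with the replicate number as a block or with no filter on low counts.

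T cell markers moved with this difference, summing to 136 to 361 CPM in BALB/c-hosted D2.1 tumors and 22.5 to 53.1 CPM in those of SCID-beige mice, where 1 to 4 of the 14 were at 0. Of the 14 markers, 12 were called higher in BALB/c mice. Thy1 was 0.352 to 0.534 times the summed markers in BALB/c-hosted D2.1 tumors and 0.644 to 1.42 times in the D2.1 tumors of SCID-beige mice. In D2A1 tumors it was 1.23 to 3.97 times the sum in BALB/c mice and 4.32 to 8.98 times in SCID-beige mice. In the latter group Thy1 was at 29.7 to 66.2 CPM while T cell markers summed to 6.87 to 10.1 CPM with 3 to 7 of them at 0. In culture, without host cells, the 14 markers summed to 2.43 to 5.35 CPM in D2A1 cells and 3.94 to 5.42 CPM in D2.1 cells. The part of T cells in the host difference was not tested.

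**Figure D3:**
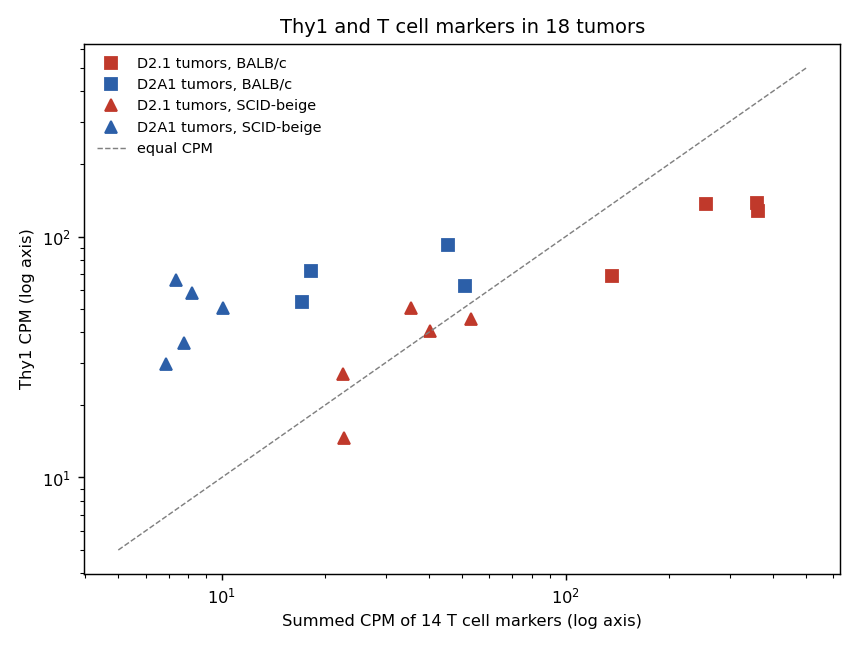
Each point is 1 tumor, with the summed CPM of 14 T cell markers on the x axis and Thy1 CPM on the y axis, both on log axes, and the dashed line marks equal CPM. The 4 D2.1 tumors from BALB/c mice lie right of the line, whereas all 9 D2A1 tumors lie left of it.

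The remaining members did not pass the test in D2.1 tumors, with fitted log2 fold changes from -0.43 (Fap) to 0.64 (Lum). Fap had an unadjusted p of 0.034, where 1489 of 14929 genes were under 0.05, and an adjusted p of 0.42 (edgeR, SE 0.18), with 42.8 to 59.3 CPM in BALB/c mice and 53.7 to 85.2 CPM in SCID-beige mice. Without the libraries with milk or skin transcripts, Acta2 changed from 0.19 to -0.46 and Lum from 0.64 to -0.24, and neither value passed the test.

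In D2A1 tumors, 0 of 10 members were called between hosts with edgeR, where 1.17% of 14572 genes were called, while 4 had an unadjusted p under 0.05, as did 1472 of the 14572 genes, and DESeq2 called 1. The 4 were Pdgfra (log2 fold change -0.87, SE 0.36), Pdgfrb (-0.74, SE 0.22), Pdgfa (-0.52, SE 0.19) and Lum (0.42, SE 0.19). Pdgfrb, the gene called by DESeq2 (adjusted p = 0.027), was at 359, 456, 270 and 255 CPM in BALB/c mice and at 490, 328, 707, 670 and 579.4 CPM in SCID-beige mice. Replicate 2 of the SCID-beige group overlapped with the BALB/c group, and without it edgeR gave an adjusted p of 0.04995. Only Pdgfa had no overlap, from 94.1 to 139 CPM in BALB/c mice and from 149 to 193 CPM in SCID-beige mice (5.33% of all genes).

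Whether the host difference itself differed between lines was tested as an interaction over all 18 tumors. None of the 10 members passed (0.0187% of 16036 genes were called), and 2 had an unadjusted p under 0.05 with edgeR, as did 1355 of the 16036 genes. These were Pdgfrb, with an interaction of 1.04 on the log2 scale (SE 0.31, adjusted p = 0.34), and Thy1, with 1.2 (SE 0.45, adjusted p = 0.47). DESeq2 called 0 members as well.

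**Figure D4:**
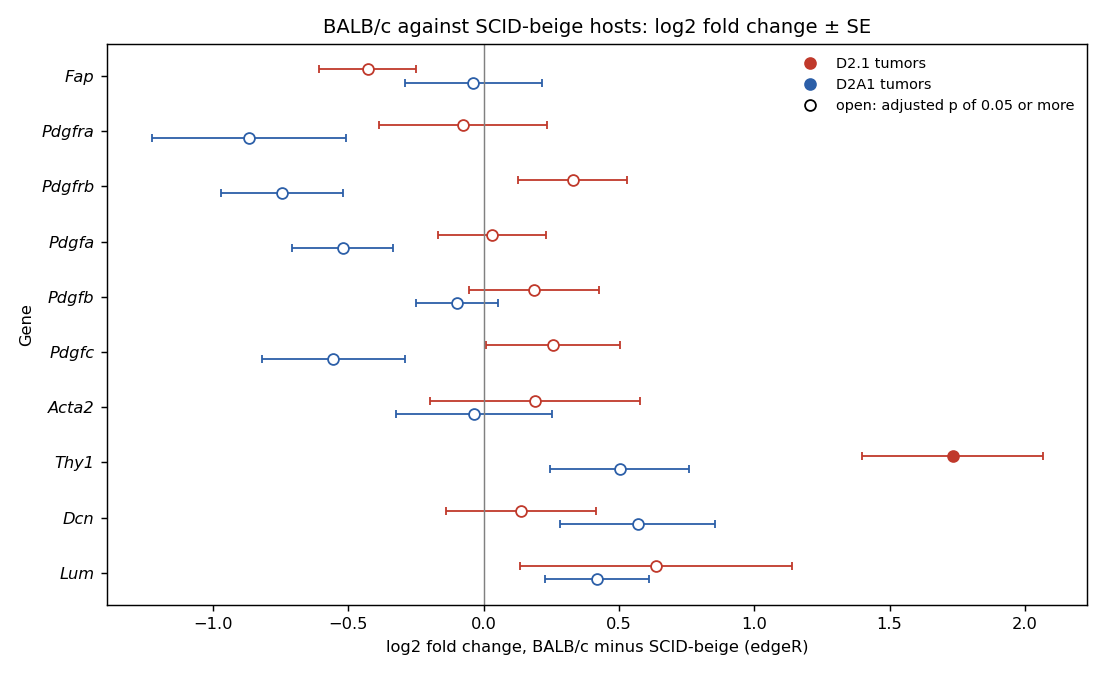
Points give the edgeR log2 fold change of BALB/c minus SCID-beige tumors with its SE for each gene in D2.1 and D2A1 tumors, and a filled point has an adjusted p under 0.05. Thy1 in D2.1 tumors, at 1.73, is the one filled point.

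Genes around the members were followed as lists. Over all genes, 24.2% were called higher and 20.7% lower in D2.1 cells in culture, 16.8% and 15.8% in D2.1 tumors of BALB/c hosts and 17.2% and 14.8% in those of SCID-beige hosts, and the counts of each list stand against these shares. Of 7 further genes that bind or process PDGF, 6 were tested in culture and 5 were higher in D2.1 cells (median log2 fold change 1.80, against -0.02 over all genes). They included Pdgfrl, a receptor-like protein (99.1 against 7.30 CPM, log2 fold change 3.90), Plat, the protease that activates PDGF-C (191 against 25.2 CPM, 3.07), and Nrp1, a co-receptor (256 against 122 CPM, 1.2). In BALB/c tumors 2 of the 7 were higher and 1 lower in D2.1, and in SCID-beige tumors 3 were higher and none lower. Plat was called in both, at 344 against 118 CPM (log2 fold change 1.63) and at 442 against 142 CPM (1.69). Pdgfd, a further ligand, was lower in BALB/c-hosted D2.1 tumors (1.0 against 2.65 CPM, log2 fold change -1.33).

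Genes that relay PDGF receptor signals were called at shares near or under those of all genes (44.9% of all genes in culture, 32.6% in BALB/c and 32.1% in SCID-beige tumors). Of 28 tested, 8 were higher and 6 lower in D2.1 cells in culture, 5 and 4 in BALB/c tumors and 4 and 3 in SCID-beige tumors, with medians between -0.14 and 0.02. The adaptor Gab1 (log2 fold change 2.21 and 1.53 in the tumor comparisons), the kinase Fyn (1.26 and 1.19) and, lower in D2.1 tumors, the kinase Yes1 (-1.32 and -1.15) were called in both hosts. Stat3 (1.39), a transcription factor, had the largest called difference in culture.

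Fibroblast and CAF genes were called higher in D2.1 cells for 10 of 13 tested in culture, with 2 lower, although these cultures hold no host fibroblasts. In BALB/c tumors 10 of 20 were higher and 2 lower in D2.1 (median log2 fold change 0.75), and in SCID-beige tumors 7 were higher and 4 lower (0.41). Postn, a matricellular protein, was at 1204 against 195 CPM in BALB/c tumors (log2 fold change 2.71), and Dpt, which encodes dermatopontin, at 150 against 15.3 CPM (3.36). Col3a1, a fibrillar collagen, was higher in culture (5.69) and in both tumor comparisons (2.91 and 2.80). The direction was not shared by all genes of the list. Fbln1 and Cxcl12 were at least 83.1-fold and 68.6-fold lower in cultured D2.1 cells. In SCID-beige tumors Fbln1 had a log2 fold change of -3.88.

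Small leucine-rich proteoglycans other than Dcn and Lum were higher in D2.1 for 6 of 7 tested in culture, 6 of 10 in BALB/c tumors and 5 of 10 in SCID-beige tumors, with 1, 0 and 2 lower. Prelp (49.3 against 0.177 CPM, log2 fold change 8.17) led in culture. Aspn (4.14 and 3.44) and Ogn (3.24 and 2.68) were called in both tumor comparisons. Of the relatives of Fap among prolyl peptidases, Dpp4, its neighbor on chromosome 2, was higher in BALB/c-hosted D2.1 tumors (6.73 against 2.68 CPM, log2 fold change 1.40), and 0 of 6 tested were called in SCID-beige tumors.

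Pericyte genes had no member called higher in D2.1 tumors. Of 10 pericyte genes tested in BALB/c tumors, 0 were higher and 2 lower in D2.1, and of 8 tested in SCID-beige tumors, 0 were higher and 4 lower, where 15.8% and 14.8% of all genes were lower. Mcam (15.4 against 88.3 CPM, log2 fold change -2.45, in BALB/c) and Cspg4 (3.51 against 14.7 CPM, -2.0) were lower in both hosts. In culture 2 pericyte genes were tested, and 1 was called higher and 1 lower in D2.1 cells. The lower one was Mcam (3.28 against 18.3 CPM, -2.35). Contractile genes other than Acta2 had 2 higher and 2 lower of 12 in BALB/c tumors and 2 higher and 4 lower of 11 in SCID-beige tumors. The BALB/c shares were near those of all genes (16.8% higher and 15.8% lower), as was the share called higher in SCID-beige tumors (17.2%, with 14.8% lower). Tpm2 was higher (1.40 and 2.30) and Actg2 lower (-2.59 and -2.83) in both.

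Markers of other cells in the tumors were counted in the same way. Of 8 macrophage markers, 3 were higher and 1 lower in BALB/c-hosted D2.1 tumors, and 5 higher and 0 lower in those of SCID-beige mice. Among 4 myoepithelial markers tested in each host, 3 and 2 were higher in D2.1 tumors, and of the skeletal muscle markers 2 of 8 and 2 of 4 were higher. Adipocyte markers (8 and 7 tested) and milk protein genes (1 and 0 tested) had no call, skin genes had 0 of 2 called in BALB/c mice and 1 of 2 lower in SCID-beige mice, and of the actins other than Acta2, Actg2 was lower in both hosts and Acta1 higher in SCID-beige mice (log2 fold change 4.47). T cell markers were higher for 5 of 7 tested in D2.1 tumors of SCID-beige mice, with 1 lower. These mice lack T cells, so the list cannot be read as a measure of T cells there. Adipocyte markers summed to 36.9 to 820 CPM in D2.1 tumors and 98.7 to 407 CPM in D2A1 tumors of BALB/c mice. In culture, where no host cells were present, 3 of 3 macrophage markers tested and 1 of 1 myoepithelial markers were also higher in D2.1 cells. The same held there for 1 of 1 adipocyte and 1 of 3 skeletal muscle markers, while 1 of 1 milk protein genes and 1 of 1 skin genes were lower. These lists therefore do not mark host cells alone. The part of other cells in the values of the members was not tested.

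Among tumors, levels varied within a group as well, and 45 pairs of members were compared by the deviations of log2 CPM from the group means over the 18 tumors. Pdgfra and Pdgfrb had the highest Pearson's r, 0.85 (Spearman's rho 0.81, adjusted p = 0.0072 and 0.018, permutation test within groups). It was 0.73 without the pair of tumors farthest from the median, and the relation was positive in all 4 groups. Acta2 and Thy1 followed with r = 0.74 (rho 0.65, adjusted p = 0.047 and 0.13, permutation test), and Pdgfrb and Pdgfc with r = 0.69 (rho 0.71, adjusted p = 0.047 and 0.058, permutation test). The neighbors Dcn and Lum had r = 0.22.

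A property of the libraries, the origin of which was not tested, moved with part of this. The slope of expression on the GC content of genes, in log2 CPM per 10 percentage points, ranged from -0.34 to 0.25 among tumors after the group means were removed. Its Pearson's r over the 18 tumors was -0.74 with Pdgfra (rho -0.75, adjusted p = 0.021 and 0.025 over 10 members, permutation test), -0.54 with Pdgfrb (rho -0.51, adjusted p = 0.12 and 0.16) and 0.67 with Thy1 (rho 0.53, adjusted p = 0.035 and 0.16). Without the pair of tumors with the most extreme slopes, r was -0.66, -0.58 and 0.55. The part of this slope in the relation of Pdgfra and Pdgfrb was not tested.

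**Figure D5:**
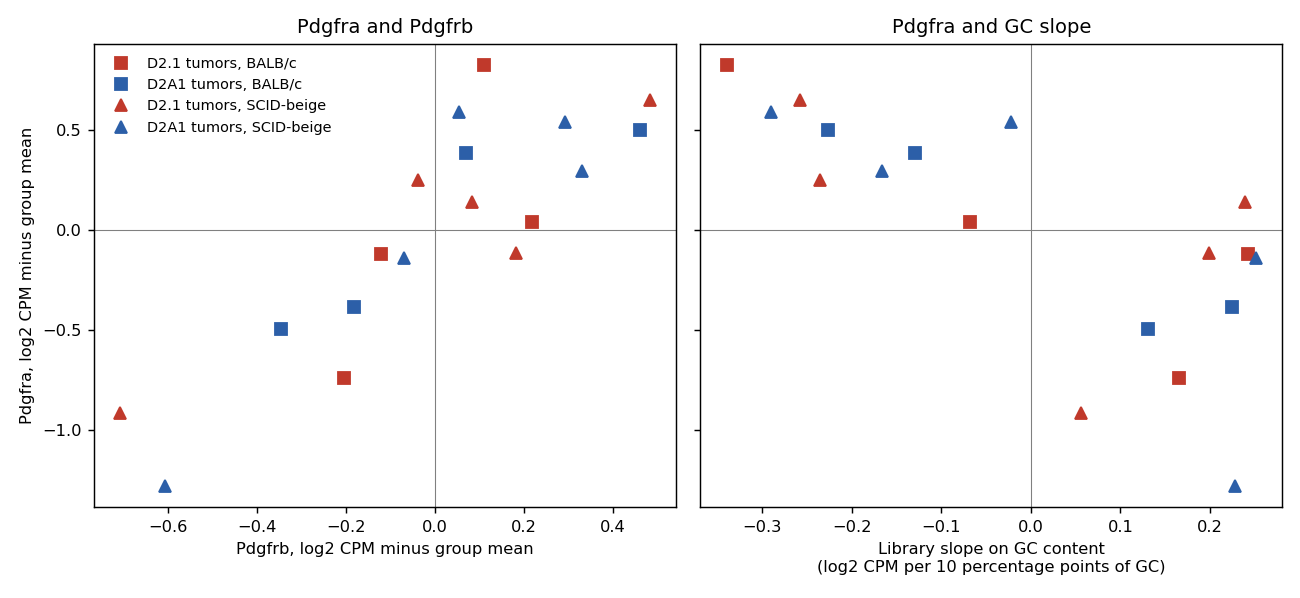
The y axis of both panels is the log2 CPM of Pdgfra minus its group mean, with 1 point per tumor, against the same for Pdgfrb (left) and against the library's slope on GC content (right, log2 CPM per 10 percentage points of GC). Pdgfra rises with Pdgfrb (r = 0.85) and is lower in libraries with a higher slope (r = -0.74).

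The genes most like each member were found by the same deviations among 13894 genes that averaged 1 CPM or more over the tumors, as a description over 18 tumors. The slope on GC content was not removed from the deviations, and its part in these values was not tested. Acta2 was most like the contractile gene Myl9 (r = 0.95), then Fxyd6 and H19. Lum was most like the proteoglycan gene Omd (0.91), followed by Thsd7a and Baalc. Thy1 was most like Cnn2 (0.92), Mfap5 (0.91) and Gm11702. Pdgfra was most like Phc3, Ulk1 and Ide (0.95 each) and Pdgfrb like Gm43254 (0.91), Il6st and Gab1. Pdgfa was most like Wnt7b (0.81), Serpinh1 and Fmod, Pdgfb like Vav2 (0.84), Dact2 and Rtn1, and Pdgfc like Mical2 (0.87), Atp2b4 and Ccn4. Dcn was most like Ppargc1a (0.89), Pde7b and Kctd3, and Fap like Ogfod3 (0.75), Usp2 and Gpihbp1.

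Scaled to gene length, Dcn led in D2.1 tumors at 173 ± 59.6 FPKM (SD, n = 4) in BALB/c and 160 ± 47.7 FPKM (SD, n = 5) in SCID-beige mice, with Pdgfra next at 144 ± 63.8 and 154 ± 56.8 FPKM, and neighbors overlapped down to Fap, which exceeded Pdgfb in every D2.1 tumor. In D2A1 tumors Pdgfa led, at 108 ± 21.1 FPKM (SD, n = 4) in BALB/c and 151 ± 20.3 FPKM (SD, n = 5) in SCID-beige mice, and Fap was lowest, at 2.71 and 2.73 FPKM, below Lum in every tumor.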

How the data were processed

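Gene-level read counts and FPKM values were deposited by the authors for 6 cell and 18 tumor libraries, sequenced and aligned at a service provider; the submitters' processing notes name STAR and mm10. The counter and its strand setting are not given in the sources used here. The deposited counts are raw, while the deposited FPKM values are scaled by the authors to depth and gene length. Counts without a gene symbol were 0.0969% in cells and 0.0446% in tumors. Counts were fitted with edgeR 4.0.16 (R 4.3.3, TMM, filterByExpr, robust quasi-likelihood), separately for each comparison and over all tumors for the interaction, with Benjamini-Hochberg adjustment. DESeq2 1.42.0 was an alternative, as were other filters and size factors, a replicate block, 1 fit of all tumors and leaving out each library. Exact permutation tests used log2 CPM with a prior count of 2 and were two-sided. Levels are plain CPM, and FPKM served to compare genes within a table. The scripts were tested on simulated data. The members and the gene lists were chosen with earlier results of these data known. Of each list, at most 4 genes were named in a comparison, those called with the largest absolute log2 fold change, and for each member the 3 genes with the highest r as most like it. Not every gene this rule selects is reported here.

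Deviations of same-numbered replicates had a positive r between lines in culture (0.184 to 0.491) and in BALB/c tumors (0.100 to 0.491). The same held in SCID-beige tumors apart from replicate 4 (-0.161 to 0.344). In each setting, not every library had its highest r with the same-numbered one of the other line. The reported tests are unpaired, and the fit with the replicate number as a block is given beside a result only where it changes the call. No pair of replicates agreed within counting noise (chi-square over degrees of freedom 4.96 to 117 in 38 pairs).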

Additional observations from a re-analysis of the deposited data

Results flagged for a closer look

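Among BALB/c-hosted D2.1 tumors, Pdgfc in replicate 1 stood apart from the other 3 tumors, at 60.6 CPM with a group median of 34.7 CPM. In the same group, Thy1 in replicate 2 stood apart on the low side, at 68.6 CPM with a group median of 132 CPM. Both passed Dixon's test for a single distant sample among 40 groups tested, and chance alone marks about 1 in 20 groups. Replicate 1 is also the library with 509 CPM of milk protein genes, and replicate 2 had the lowest sum of T cell markers of its group, at 136 CPM. The part of either in these values was not tested.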

How the results depend on the processing

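Calls between lines kept their number within 1.5 times under every alternative run. The count of members called between hosts in D2.1 tumors, 1 in the reported fit, was 0 with no filter on low counts, 0 with the replicate block and 0 without the 2 D2.1 BALB/c libraries with milk or skin transcripts, and 0 to 1 when single libraries were left out. In D2A1 tumors the count, 0 as reported, was 1 with DESeq2 and 0 to 1 when single libraries were left out. Without the 2 libraries, an alternative chosen after seeing the data like the FPKM ratios and the count of correlated pairs, the log2 fold change of Acta2 between lines in BALB/c mice was -0.15. The same fit gave host differences in D2.1 tumors of 0.24 for Pdgfra, -0.22 for Pdgfa, -0.068 for Pdgfc, -0.46 for Acta2 and -0.24 for Lum, and interactions of -0.44 for Acta2 and -0.69 for Lum. One fit of all tumors gave -0.0014 for Pdgfa and the replicate block 0.063 for Pdgfra between hosts in D2.1 tumors. The log2 ratio of Pdgfb in D2.1 tumors to culture was 0.13 by medians in BALB/c mice, and 0.72 and 0.55 by FPKM in BALB/c and SCID-beige mice, and it ranged from -0.37 to 0.16 in BALB/c mice with single libraries left out (0.16 without D2.1 culture replicate 3). None of these values that had a test passed it, and the cause was not tested. With single libraries left out, the log2 fold change of Pdgfb in culture ranged from -0.43 to 0.047. Between hosts in D2.1 tumors it ranged from -0.41 to 0.11 for Pdgfra, -0.080 to 0.17 for Pdgfa, -0.0094 to 0.40 for Pdgfc, -0.051 to 0.43 for Acta2 and -0.0085 to 0.34 for Dcn. In D2A1 tumors it ranged from -0.24 to 0.13 for Fap and -0.21 to 0.11 for Acta2, and the interaction from -0.046 to 0.44 for Acta2 and -0.43 to 0.46 for Lum. The replicate block changed the calls of Pdgfa in culture and of Thy1 between hosts in D2.1 tumors and no other call of a member. Same-numbered tumors of SCID-beige mice had r of -0.161 to 0.344, negative for replicate 4 and positive for replicates 1, 2, 3 and 5. Same-numbered tumors of the 2 hosts had r of -0.198 to 0.169 for D2.1 and -0.441 to -0.187 for D2A1. Depth limits Fap in D2A1 culture and Thy1, Dcn and Lum in both cultures, which had 0 to 2 counts.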
